A study of Bos grunniens with 12 samples.

Results

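FRAS1, FREM1, FREM2 and FREM3 encode large extracellular proteins, and GRIP1 encodes a scaffold protein that helps to bring FRAS1 and FREM2 to the cell surface. Rows of the deposited expression table were taken by these 5 gene symbols, which stood on 10 of its 20953 gene identifiers, together with their rows in the deposited comparison of m6A peaks between ages. FRAS1 stood on 3 identifiers, FREM1 on 2, FREM2 on 2 and GRIP1 on 3. FREM3 had no row under its symbol and was not analysed here. The set was chosen by measured values of these same data, the number of differential m6A peaks on FREM2 and its difference between ages in the input libraries. The values of its genes at the 2 ages are therefore given as a description, with no test.

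FRAS1, FREM1 and FREM2 form a complex in the basement membrane under epithelia, where they help to anchor the epithelium to the tissue below. Loss of FRAS1, FREM2 or GRIP1 is known to cause Fraser syndrome, with blistering, fused eyelids and missing kidneys. In the testis, a basement membrane lies between the seminiferous epithelium, with its Sertoli cells and spermatogonia, and the peritubular cells that surround the tubule.

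Testes of 3 yaks aged 1.5 years (Y group, titled as 18 months) and of 3 yaks aged 5 years (M group) were studied, and none received a treatment. Each testis gave 1 library of mRNA pieces pulled down with an m6A antibody (IP) and 1 library of the fragments before this step (input), so that the series held 12 samples. Age was taken from the sample titles, which give the same ages as the growth protocol. A further field of the record, the developmental stage, named the opposite stage for every sample and was not used. If that field and not the titles were right, every direction between ages given here would be reversed. The Y group was sampled by castration and the M group within 1 hour of slaughter, so age and the way of collection cannot be told apart. Whole testis was used, and in such a tissue fewer cells of a type and less RNA per cell cannot be told apart.

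Expression was measured as FPKM, a fragment count scaled to transcript length and library size, in the 6 input libraries. The FPKM of a library summed to between 116187 and 139921. Over 119 to 142 genes of low FPKM per library, the median ratio to replicate 1 of the Y group lay between 0.914 and 1.01. Only genes with a ratio in a fixed window around 1 entered, so this median could not show a large difference in depth. The number of fragments behind a value was not recovered. Genes of spermatids were high at both ages and lower in the M group, although the study describes the younger animals as not yet mature. These genes thus went against the described stages, and the directions between ages rest on the titles and the growth protocol. TNP1, the spermatid protein that replaces histones, was at 883, 852 and 879 FPKM in Y replicates 1, 2 and 3 and at 201, 641 and 550 FPKM in M replicates 1, 2 and 3. SOX9, a transcription factor of Sertoli cells, was at 6.80 to 8.38 FPKM in the Y group and at 8.73 to 13.8 FPKM in the M group. Replicate 2 of the M group was the closest of its group to the Y group in both genes. Fits were made for the 12437 genes with a mean of at least 0.5 FPKM, on log2(FPKM + 0.1), and 4 of the 10 identifiers passed this minimum.

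The symbol of a row and its deposited gene ontology terms did not always describe the same kind of gene. All 8 rows named FRAS1, FREM1 or GRIP1 carried the term RNA-directed DNA polymerase activity, the reverse transcriptase activity of retrotransposons, as did 3523 genes of the table (16.8%). Of 47 rows of other basement membrane genes and their partners, 13 also carried it. FREM2 (ENSBGRG00000010780) was the exception and carried the term basement membrane, as did 35 genes of the table in all, none of which had the reverse transcriptase term. The second FREM2 row, ENSBGRG00000011171, carried neither. Whether fragments of repeats add to the FPKM of the FRAS1, FREM1 and GRIP1 rows was not tested, and these rows are therefore named with their identifiers throughout.

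FREM2 carried all 6 differential m6A peaks found on these genes, and no peak lay on a row named FRAS1, FREM1 or GRIP1. Over all genes of the table, 5.63% had at least 1 such peak, and among the genes with a peak, 5 of 1207 (0.414%) had at least 5. FREM2 lies on the plus strand of chromosome 15 of LU_Bosgru_v3.0, from 59582215 to 59754391, a span of 172177 bp. The first peak ran from 59583660 to 59584009 and began 1445 bp from the gene start. The second, from 59584757 to 59585804, was the widest with 1048 bp, and the third ran from 59585903 to 59586406. These 3 peaks were annotated to exon 1 of 26. Only 2 genes, FREM2 among them, had at least 3 peaks annotated to exon 1, of 203 genes with any peak there.

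The next pair of peaks was annotated to exon 3 and lay close behind, one from 59586555 to 59586954 and one from 59587054 to 59587253. Together the first 5 peaks covered 3594 bp, of which 69.6% lay under a peak, and they ended within the first 2.93% of the gene span. The gaps between them were 747, 98, 148 and 99 bp, and whether peaks this close are separate sites was not tested. The last peak, of 200 bp, followed after 166639 bp, in exon 26, and ended 299 bp before the gene end. The 5 peaks of CASP8AP2 covered 4479 bp and those of SLC26A11 5669 bp, whereas the 5 peaks of MACF1 and ZFHX3 were spread over 101363 and 191327 bp. Of 176 genes with at least 2 differential peaks, 8 had a peak in exon 1 and another in the last exon, as FREM2 did. The widths of 5 of its peaks were at most 1000 bp, a limit met by 69.0% of all differential peaks, whose median width was 398 bp. The table gives no value per animal and no direction, so no test of these peaks was made. FREM2 RNA was itself at 0.0694 to 0.363 FPKM in the Y input libraries and at 1.57 to 5.10 FPKM in the M libraries. How far the peaks reflect m6A per transcript or the level of the RNA was not tested.

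**Figure D1:**
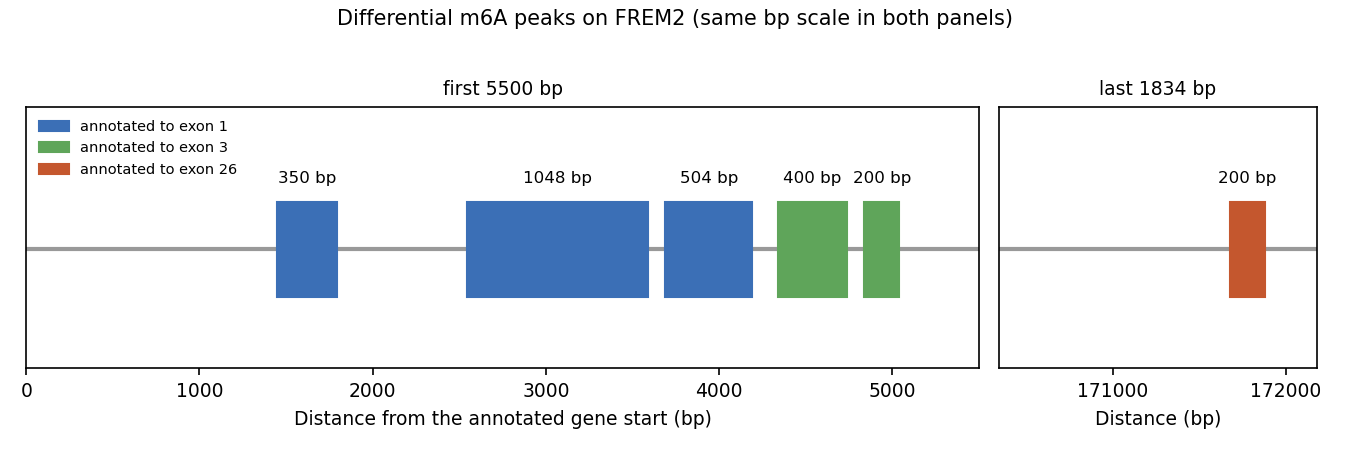
Differential m6A peaks on FREM2 by distance from the annotated gene start in bp, with the start of the gene on the left and its end on the right at the same scale; boxes are peaks, coloured by the exon they were annotated to and labelled with their width. The first 5 peaks lie within 3594 bp and the last one stands alone, 166639 bp further on.

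In the input libraries, FREM2 (ENSBGRG00000010780) was low in the Y group and higher in every library of the M group. The Y group had 0.363, 0.0694 and 0.101 FPKM in replicates 1, 2 and 3. The M group had 5.10, 1.57 and 2.54 FPKM in the same order of replicates. The groups did not overlap, and the lowest M library was 4.33 times the highest Y library. The spread within each group was wide, however, as the highest library was 5.23 times the lowest in the Y group and 3.25 times in the M group. The means were 0.178 ± 0.161 (SD, n = 3) and 3.07 ± 1.82 FPKM (SD, n = 3), a ratio of 17.3. On the log2(FPKM + 0.1) scale the difference was 3.50 (standard error 0.54), and 9 of the genes fitted had a higher one. FREM2 was chosen with this difference known, so nothing is read from its place among the genes. The log2 difference depended on the pseudocount, and was 1.70 with 1 and 4.20 with 0.01 added in place of 0.1. FREM2 passed the minimum of 0.5 FPKM through the M group alone. By level it stood above 27.1% to 39.3% of all genes in the Y libraries and above 54.7% to 74.1% in the M libraries.

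The second FREM2 row (ENSBGRG00000011171) was listed at 0 in all Y libraries and in M replicate 2, and at 0.0455 and 0.0427 FPKM in M replicates 1 and 3. It was below the minimum and was not fitted.

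FRAS1 is the partner that the FREM proteins bind to form the complex. Its 2 fitted rows differed in level, and in both M replicate 1 was the lowest library of the 6. ENSBGRG00000011868 had 1.53, 0.968 and 1.54 FPKM in Y replicates 1, 2 and 3 and 0.354, 1.20 and 0.686 FPKM in M replicates 1, 2 and 3. The groups overlapped, since M replicate 2 lay above Y replicate 2. The log2 difference, M minus Y, was -0.88 (standard error 0.42). Without M replicate 1 it was -0.49, so that library carried much of it.

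ENSBGRG00000012614, the other fitted row named FRAS1, had the highest level of the 10 rows. It was at 20.6, 18.6 and 19.9 FPKM in Y replicates 1, 2 and 3, and at 10.4, 19.1 and 13.8 FPKM in M replicates 1, 2 and 3. Here too M replicate 2 lay among the Y libraries, while M replicates 1 and 3 lay below them. The log2 difference was -0.49 (standard error 0.23), and -0.27 without M replicate 1. The third FRAS1 row, ENSBGRG00000012600, was listed at 0 in every library.

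FREM1, the secreted member of the complex, was low at both ages. ENSBGRG00000000792 had 0.534, 0.639 and 0.312 FPKM in Y replicates 1, 2 and 3 and 0.203, 0.420 and 0.119 FPKM in M replicates 1, 2 and 3. M replicate 2 lay above Y replicate 3, so the groups overlapped. With a lower minimum of 0.1 FPKM its log2 difference was -0.83 (standard error 0.42). ENSBGRG00000000840 stayed at or under 0.124 FPKM in all libraries and was listed at 0 in M replicate 2.

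GRIP1 (ENSBGRG00000019259) was lower in every M library than in any Y library. It had 6.94, 5.19 and 5.76 FPKM in Y replicates 1, 2 and 3 and 1.86, 3.79 and 3.04 FPKM in M replicates 1, 2 and 3. The means of 5.96 ± 0.890 and 2.90 ± 0.975 FPKM (SD, n = 3 each) differed by a ratio of 2.06, or -1.06 (standard error 0.27) on the log2 scale. Among fits without 1 library the log2 difference lay between -1.28 and -0.78. The other 2 rows named GRIP1, ENSBGRG00000020011 and ENSBGRG00000020063, were listed at 0 in every library.

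**Figure D2:**
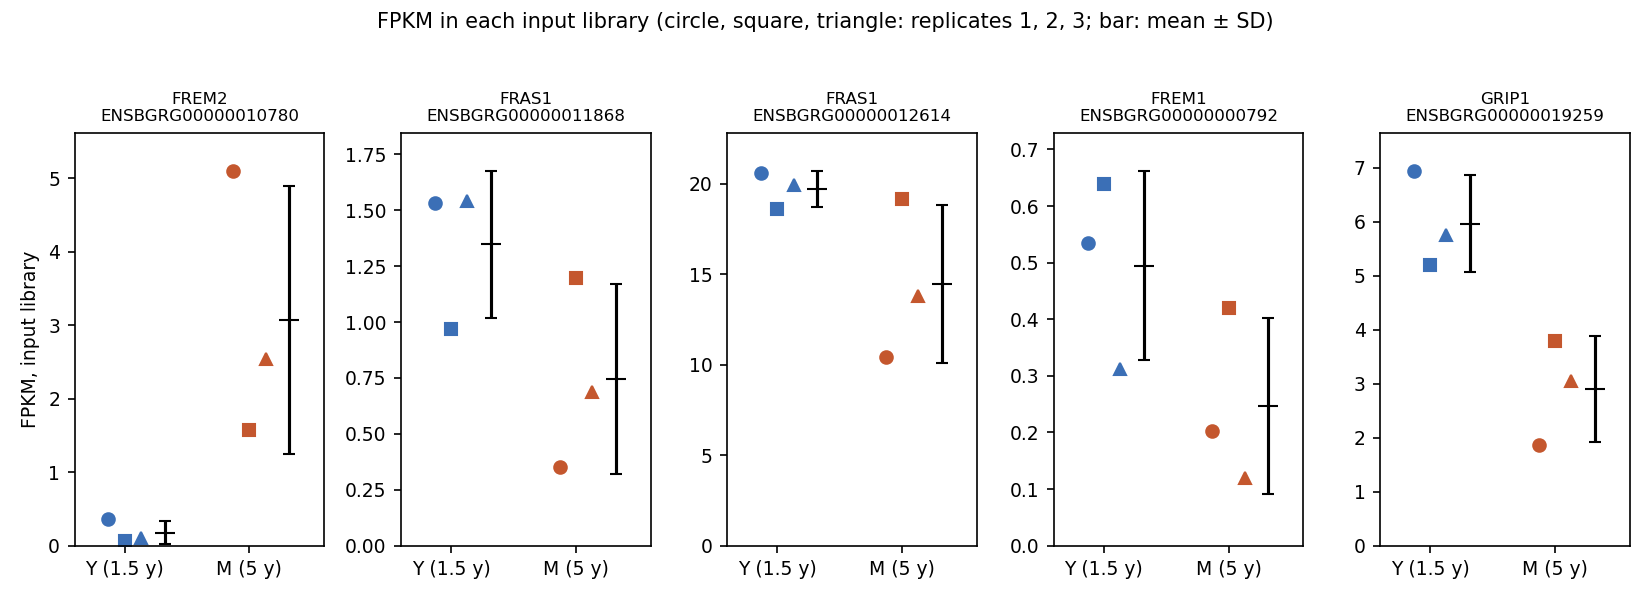
FPKM in the input libraries of the Y and M groups for the 5 rows with the highest values, each on its own axis from 0; symbols are replicates 1 (circle), 2 (square) and 3 (triangle), and the bar beside them is the mean ± SD (n = 3). FREM2 is higher in all M libraries, GRIP1 is lower in all of them, and the M and Y libraries overlap in the FRAS1 and FREM1 rows.

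FREM2 was chosen with its difference between ages known, so a ratio to the other rows that differs between ages follows from that choice. The ratios are given as a description. FPKM is per length, but the fitted FRAS1 rows had 1.53 and 20.6 FPKM in the same library, Y replicate 1. Whether each row holds the whole gene of its symbol was not settled, so the ratios compare rows and not the partners of the complex. FREM2 was at 0.0658 to 0.236 times the FPKM of the FRAS1 row ENSBGRG00000011868 in the Y libraries. In the M libraries it was at 14.4, 1.31 and 3.70 times that row in replicates 1, 2 and 3. Against the other FRAS1 row, ENSBGRG00000012614, FREM2 remained lower in every library, at most 0.489 times its FPKM. Set against GRIP1 (ENSBGRG00000019259), FREM2 was at 0.0523, 0.0134 and 0.0176 times its FPKM in Y replicates 1, 2 and 3. The same ratio was 2.74, 0.414 and 0.835 in M replicates 1, 2 and 3.

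Of the 4 rows fitted, 2 had groups that did not overlap, FREM2 and GRIP1, against 33.7% of all genes fitted (19.8% with the M group above and 13.9% with it below). Since FREM2 was chosen with this contrast known and passed the minimum through the M group alone, nothing is read from this count, and no p-value of the 4 rows is given. Over all genes fitted, limma gave an unadjusted p-value under 0.05 with a change of at least 1 on the log2 scale for 9.26% (4.01% upward and 5.25% downward with age). With Benjamini-Hochberg adjustment, 4 genes (0.0322%) had an adjusted p-value under 0.05 in limma, while 3123 (25.1%) had an unadjusted p-value under 0.05. Without M replicate 2 the count of genes with an adjusted p-value under 0.05 was 2403. With 3 animals against 3, an exact two-sided permutation test of a single gene cannot give a p-value under 0.1.

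In the 4 fitted rows, M replicate 1 lay farthest from the Y mean and M replicate 2 nearest to it. The log2 difference of FREM2 from the Y mean was 4.37, 2.73 and 3.40 in M replicates 1, 2 and 3. That of GRIP1 was -1.62, -0.63 and -0.94 in the same libraries. The medians of the round and elongating spermatid, Sertoli cell, peritubular and stromal, spermatogonia and duct epithelial lists followed the same order, while those of the spermatocyte, Leydig cell, macrophage and endothelial lists did not. The median of 5 elongating spermatid genes was at -2.16, -0.46 and -0.66 in M replicates 1, 2 and 3, and that of 8 Sertoli cell genes at 1.29, 0.37 and 0.71. All 5 measured elongating spermatid genes and all 5 measured round spermatid genes had lower means in the M group, and the other 4 genes of each list, PRM1 among them, had no row. The summed FPKM of the elongating list was 1254 to 1307 in the Y libraries and 295 to 932 in the M libraries, and that of the round list 354 to 469 and 94.0 to 313. All 8 measured Sertoli cell genes and all 8 measured peritubular and stromal cell genes were higher in the M group, with sums of 94.8 to 109 against 134 to 286 FPKM and of 26.3 to 28.7 against 37.5 to 63.4 FPKM. AMH, CLDN11 and COL1A1 of these lists had no row. The part of cell composition in the values of FREM2, FRAS1 and GRIP1 was not tested.

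Duct epithelium and mesothelium, other cells that whole testis can hold, had few measured markers. CDH1, the cadherin of epithelia, was at 0.183 FPKM or less in every library, and PAX8, a transcription factor of the rete testis and ducts, at 0.262 FPKM or less. Of the 8 epithelial genes 5 had a row, with a summed FPKM of 36.4 to 42.6 in the Y group and 26.3 to 39.0 in the M group, most of it from EPCAM, an epithelial adhesion protein. EPCAM had 36.5 ± 2.74 FPKM in the Y group and 32.2 ± 5.99 FPKM in the M group, and the groups overlapped. KRT7, a keratin of simple epithelia and the other fitted gene of the list, had 2.71, 3.46 and 3.44 FPKM in Y replicates 1, 2 and 3 and 0.471, 1.62 and 1.28 FPKM in M replicates 1, 2 and 3. All M libraries lay below all Y libraries, with a log2 difference of -1.57 (standard error 0.40, adjusted p = 0.154 in limma, unadjusted p = 0.00581). PAX8 lay the other way without overlap, at 0.0910 ± 0.0541 FPKM in the Y group and 0.230 ± 0.0430 FPKM in the M group (SD, n = 3 each), below the minimum. EPCAM and KRT7 were named after their values had been seen. The 4 measured mesothelial genes summed to at most 1.04 FPKM, and none passed the minimum.

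**Figure D3:**
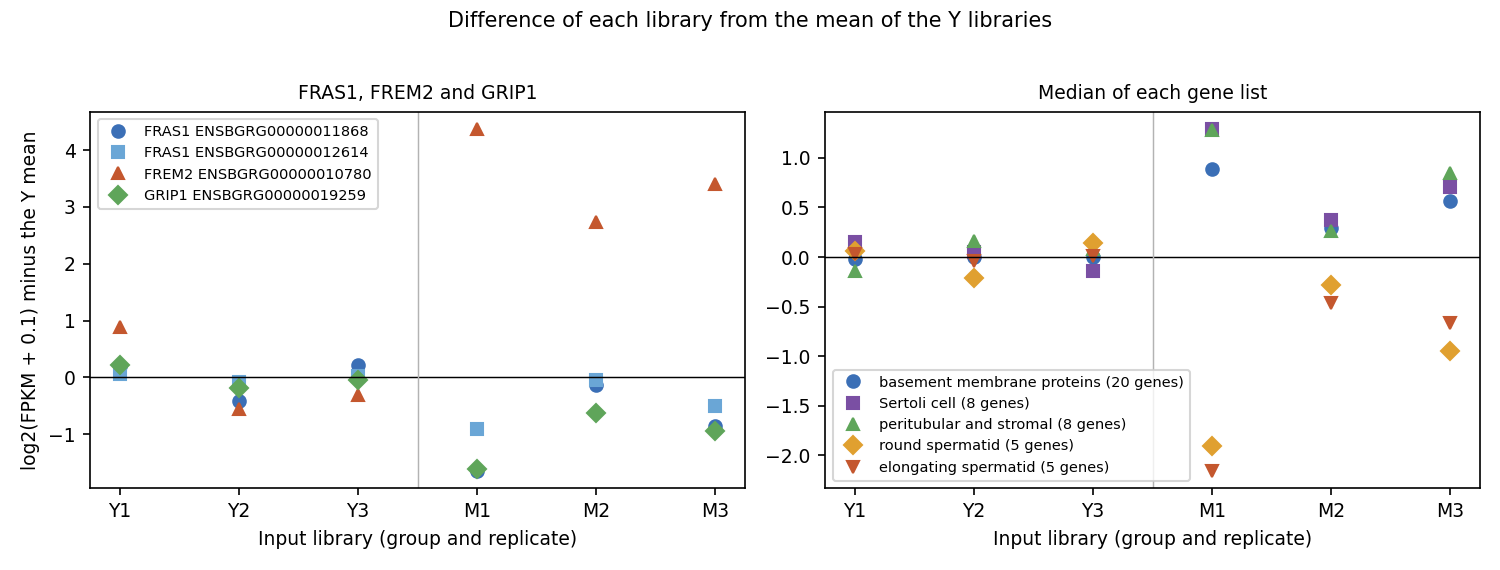
Difference of each input library from the mean of the Y libraries on the log2(FPKM + 0.1) scale, for the 4 fitted rows of FRAS1, FREM2 and GRIP1 (left) and for the median of 5 gene lists (right). FREM2 reaches 4.37 in M replicate 1, where GRIP1 is at -1.62 and the elongating spermatid list at -2.16; M replicate 2 is the nearest of its group to 0 in each.

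Other genes of the basement membrane were compared between ages in 3 lists, which hold none of the genes above. Of 54 listed genes 47 had a row and 34 were fitted. Of these 34, 28 were higher in the M group (82.4%), against 53.5% of all genes fitted, and the median log2 difference was 0.49, against 0.04 over all genes. No gene of the lists had an adjusted p-value under 0.05 in limma. An unadjusted p-value under 0.05 was reached by 17 genes that were higher and 1 that was lower, and 6 and 1 of them also changed by at least 1 on the log2 scale. Without M replicate 1 the 7 genes past both limits became 2, and without M replicate 2 they became 12, with 16 genes at an adjusted p-value under 0.05.

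Of 20 structural proteins fitted, 15 were higher in the M group and the median log2 difference was 0.56. LAMA1, a laminin chain of the seminiferous tubule wall, had 2.60, 2.53 and 2.33 FPKM in Y replicates 1, 2 and 3 and 9.56, 4.97 and 6.98 FPKM in M replicates 1, 2 and 3. All M libraries were above all Y libraries, and the log2 difference was 1.44 (standard error 0.24, adjusted p = 0.154 in limma). PXDN, the peroxidasin that crosslinks collagen IV, differed by 1.55 (standard error 0.31), from 2.68 ± 0.436 to 8.50 ± 3.89 FPKM (SD, n = 3 each). COL4A5, a collagen IV chain, differed by 1.27 and AGRN, the heparan sulfate proteoglycan agrin, by 1.21. Replicate 1 of the M group was the highest library in all 4 genes, as it was in FREM2.

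LAMA3, a laminin chain also known from the junction between Sertoli cells and spermatids, went the other way. It had 7.21, 7.16 and 7.03 FPKM in Y replicates 1, 2 and 3 and 1.91, 5.29 and 3.29 FPKM in M replicates 1, 2 and 3, a log2 difference of -1.12 (standard error 0.33, adjusted p = 0.154 in limma). The order of the M libraries was that of GRIP1. LAMA5, the laminin chain of many epithelial basement membranes, had a log2 difference of -0.37, and its groups overlapped. The collagen IV chains COL4A1 and COL4A3 had log2 differences of 0.54 and 0.43, with standard errors of 0.23 and 0.20. In size the FREM2 difference, 3.50, lay outside the range of these genes, from -1.12 to 1.55. FREM2 was chosen with its difference known, so nothing is read from this. With 1 added in place of 0.1, the log2 difference was 1.70 for FREM2 and 1.30 for PXDN. The difference between FREM2 and the other genes was not tested.

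Among the partners of the Fraser complex, NPNT encodes nephronectin, a ligand that the FRAS1 complex holds in the basement membrane of the embryonic kidney. It had 1.17, 0.666 and 1.09 FPKM in Y replicates 1, 2 and 3 and 2.88, 1.74 and 2.04 FPKM in M replicates 1, 2 and 3. The groups did not overlap, and the log2 difference was 1.12 (standard error 0.29, adjusted p = 0.154 in limma). ITGA8 and ITGB1, the chains of its integrin receptor, had no row under their symbols. HMCN1, hemicentin, had a log2 difference of 0.89 with overlapping groups, and FBLN1, fibulin that lies beside it, one of 0.35. GRIP2, the paralog of GRIP1, was at 0.474 ± 0.185 FPKM in the Y group and had a mean of 0.324 FPKM in the M group, below the minimum. All 6 partners fitted had a difference above 0, with a median of 0.57. This does not hold for partners that the minimum removed. With a lower minimum of 0.1 FPKM, GRIP2, VWA2 and GRIA2 had log2 differences of -0.43, -0.15 and -0.91. CSPG4 had one of 0.16, and the groups overlapped in each of these genes. VWA2, GRIA2 and CSPG4 fall outside the rule for named genes and were named after their values had been seen.

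Of 8 receptors fitted, 7 were higher in the M group. BCAM, a laminin receptor, had 22.4, 18.4 and 18.6 FPKM in Y replicates 1, 2 and 3 and 81.5, 30.8 and 50.8 FPKM in M replicates 1, 2 and 3, a log2 difference of 1.35 (standard error 0.33, adjusted p = 0.154 in limma). The other receptors differed by less than 1, with a median of 0.31 over the list. Differential m6A peaks lay on 3 of the 34 fitted genes of the lists, COL4A4, PXDN and EGFLAM, against 9.29% of all genes fitted. COL4A4 and EGFLAM fall outside the rule for named genes and were named after their peaks had been seen.

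**Figure D4:**
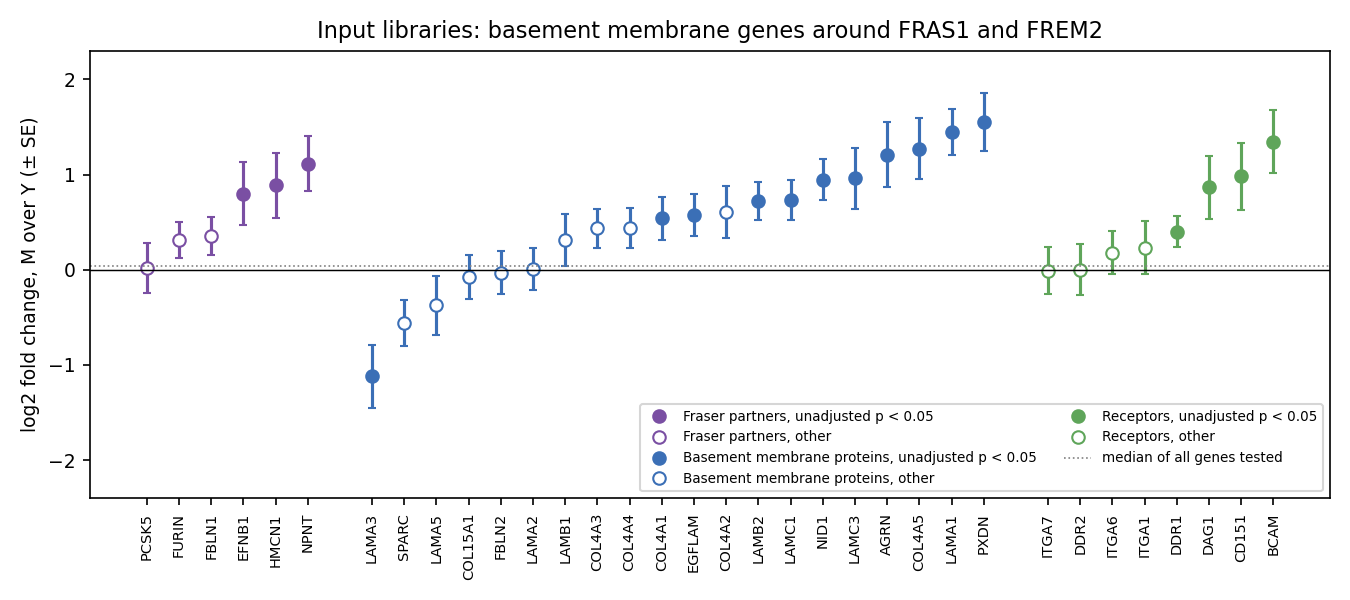
Log2 fold change of M over Y in the input libraries, with its standard error, for the 34 fitted genes of the 3 basement membrane lists; filled points have an unadjusted p-value under 0.05 in limma and the dotted line is the median of all genes fitted. Most points lie above 0, PXDN is the highest at 1.55 and LAMA3 the lowest at -1.12, and no gene has an adjusted p-value under 0.05.

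The genes whose pattern over the 6 input libraries was most like that of each row were found by Pearson's r of log2(FPKM + 0.1). For FREM2 these were ZNF362 (r = 0.998), SUB1 (r = 0.997) and HNRNPR (r = 0.994). For GRIP1 they were KIAA1841 (r = 0.997), GDF6 (r = 0.996) and MGAT2 (r = 0.996). For the FRAS1 rows they were MMP13, ABHD17A and PGAP2 (ENSBGRG00000011868, r of at least 0.997) and ATXN7L1, TEX36 and NOXRED1 (ENSBGRG00000012614, r of at least 0.997). Such likeness was common, as 357 genes had an r of at least 0.95 with FREM2, 678 with GRIP1, and 759 and 1010 with the FRAS1 rows, of 12433 compared. All these values rest on the same 6 libraries. Between the rows themselves, FREM2 had an r of -0.88 with GRIP1 and of -0.75 and -0.80 with the FRAS1 rows, while GRIP1 and the FRAS1 rows had an r of 0.94 each and the FRAS1 rows one of 0.98 with each other. These are descriptions over 6 libraries of 2 ages.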

How the data were processed

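The authors used Trimmomatic for trimming and SortMeRNA against rRNA. The submitters' processing notes name HISAT2 2.0.4 as a tool, and uniquely aligned reads on LU_Bosgru_v3.0 were retained. The FPKM values were deposited by the authors for each input library; the program that made them is not given in the sources used here. Peaks were called and compared between ages by the authors with MeTDiff (p at most 0.05, fold at least 1.5) and annotated with ChIPseeker; how replicates entered is not stated, and no peak value is given.

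Genes with a mean of at least 0.5 FPKM entered a linear model on log2(FPKM + 0.1), fitted by lmFit and eBayes with a trend (limma 3.58.1, R 4.3.3), two-sided, with Benjamini-Hochberg adjustment over all genes fitted; fold changes of low genes are understated on this scale. The fit was tested on simulated data with independent errors in each gene. These held no difference shared by a whole library, so the simulation does not cover such differences. The genes and lists were chosen with earlier results of these data known. Named were all rows of FRAS1, FREM1, FREM2 and GRIP1, up to 6 genes per basement membrane list past an unadjusted p-value of 0.05 with a log2 change of 1, 9 further genes of these lists, 3 genes nearest in pattern to each fitted row, and 5 markers. A symbol on more than 1 identifier was taken at its highest mean, except for FRAS1, FREM1, FREM2 and GRIP1, where every row was kept. Marker lists covered spermatogonia, spermatocytes, round and elongating spermatids, Sertoli, Leydig, peritubular and stromal, macrophage, endothelial, erythroid, duct epithelial and mesothelial cells. Alternatives were other pseudocounts, minima and scalings, eBayes without a trend, a replicate block, each library left out, and merged or short peaks. The peak lists of single groups, the IP libraries by gene and sequence motifs were not analysed here. Python 3.11.15 with pandas 2.3.3 and matplotlib 3.10.9 was used for the rest.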

Additional observations from a re-analysis of the deposited data

How the results depend on the processing

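The direction of FREM2, GRIP1 and the FRAS1 rows was the same under all 14 alternatives. For FREM2 and GRIP1, whose groups did not overlap, leaving out a library or changing the pseudocount could not reverse it. The minimum, trend and block settings left the log2 difference of each of these rows unchanged. FREM2 was also chosen with its difference known, so nothing is read from this agreement for FREM2 and GRIP1. The FREM2 log2 difference was 1.70 with a pseudocount of 1 and 4.20 with one of 0.01, and lay between 3.07 and 3.94 over the fits without 1 library. Those of the FRAS1 rows lay between -1.25 and -0.49 (ENSBGRG00000011868) and between -0.71 and -0.27 (ENSBGRG00000012614), and that of GRIP1 between -1.28 and -0.78. With 1 added, 4 basement membrane and partner genes passed an unadjusted p-value of 0.05 and a log2 change of 1 in place of 7, and 501 of all genes in place of 1152. Without 1 library these counts ran from 2 to 12 and from 410 (M replicate 1 left out) to 2028 (M replicate 2 left out). Genes of the lists with an adjusted p-value under 0.05 ran from 0 to 16, and all genes from 0 (Y replicate 3 left out, 1662 unadjusted) to 2403. The count of all genes was 2 with a pseudocount of 0.01, 9 with a minimum of 0.1 FPKM or without a trend, and 8 without a minimum. The cause was not tested. Of 14 other named genes, 10 had an adjusted p-value under 0.05 without M replicate 2 and under no other alternative. Same-numbered libraries did not deviate together (r of -0.02, -0.09 and 0.01), and 0 of the 6 libraries correlated best with their own number, so the numbers were taken as names only; with the replicate block the count of all genes with an adjusted p-value under 0.05 was 1 and the other counts moved by less than 1.5 times. None of the 6 peaks on FREM2 overlapped, so merging overlapping peaks could not change their number, and they stayed 6. At a width of at most 1000 bp they were 5. The planned motif search in the peaks was not run, as no genome was used here.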

Other observations

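The other marker lists were compared in the same input libraries. Of 6 spermatogonia genes fitted, 5 were higher in the M group, with a median log2 difference of 0.43, and an unadjusted p-value under 0.05 in limma was found for 1. The 9 spermatocyte genes had a median of 0.04, and none had an unadjusted p-value under 0.05. Of the Leydig cell list, 2 of 7 genes were fitted, and the summed FPKM of the list was 10.1 to 19.1 in the Y group and 7.40 to 8.40 in the M group. The medians of 4 macrophage and 4 endothelial genes were 0.28 and 0.08. Of the 4 macrophage genes, 3 had a log2 difference above 0 and 1 had one below it. The latter, CD163, was at -1.16, and all its M libraries lay below all its Y libraries. ADGRE1, also of this list, was below the minimum of 0.5 FPKM. With a lower minimum of 0.1 FPKM its log2 difference was -1.06, and its M libraries also lay below all its Y libraries. STAR, CYP11A1, CD163 and ADGRE1 were named after their values had been seen. Of 5 erythroid genes 2 had a row, and their summed FPKM was at most 0.863. In limma, 0 genes of these 6 lists passed an adjusted p-value of 0.05, and 3 had an unadjusted p-value under it.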
